A study of Ovis aries with 4 samples.

Results

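The genes described here make, carry and inactivate prostaglandins: 10 of the 25197 features measured in day 14 sheep conceptuses. They were chosen by name for their roles, with earlier results of these data known, and each is 1 feature of the table. They are the cyclooxygenases PTGS2 and PTGS1, the terminal synthases PTGES, PTGES3 and PTGIS, the phospholipases PLA2G7, PLA2G6 and PLA2G4A, the transporter SLCO2A1 and the reductase PTGR1. PTGS2 was the highest in each conceptus, at 1093 ± 731 RPKM (SD, n = 4), and PTGS1 was at or near 0. Of the 10 genes, 7 averaged 5 RPKM or more, as did 35.2% of all 15226 features with a symbol, and the phospholipase that classically feeds cyclooxygenase, PLA2G4A, was at 1.05 ± 0.251 RPKM. PTGS2 and SLCO2A1 were highest in conceptus 3, and PTGES and PTGIS were lowest in that same conceptus. Of all 6374 features that averaged 5 RPKM or more, 14.4% were highest and 31.2% lowest in conceptus 3, so 2 of 7 genes lowest there is near the share of all features.

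A prostaglandin is made in steps. A phospholipase frees arachidonic acid from membrane lipid, a cyclooxygenase turns it into an unstable endoperoxide, and a terminal synthase turns that into prostaglandin E, prostacyclin or another end product. The product crosses membranes slowly without a carrier, acts on receptors at the cell surface, and is inactivated by oxidation and then reduction. In sheep, the elongating conceptus is known to release prostaglandins into the uterine lumen before it attaches, where they act on the endometrium along with interferon tau.

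The study holds 1 group of 4 conceptuses, each from a different pregnant Columbia and Rambouillet crossbred ewe, with no treatment or genotype named. A conceptus is the embryo with its membranes, flushed from the uterine horn and here sequenced whole after removal of ribosomal RNA, so the values mix trophectoderm, endoderm and embryonic disc. All values are RPKM, the reads of a gene scaled to transcript length and library size, which lets levels of different genes in 1 library be compared. Fewer cells of a type and less RNA per cell cannot be told apart in such bulk samples.

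All 9 measured trophectoderm markers averaged 5 RPKM or more, from CDX2 at 11.9 ± 3.90 to TP-1, the interferon tau feature, at 20347 ± 7992 RPKM. Maternal endometrium also makes prostaglandins, and of 8 measured endometrial markers PGR, the progesterone receptor, was listed at 0 in all 4 libraries. All 8 markers summed to 98.4, 100.1, 87.5 and 83.6 RPKM in conceptuses 1 to 4, lowest in conceptus 4. LGALS15 held most of this sum, at 89.0 ± 6.87 RPKM. The other 7 markers summed to 7.99, 2.54, 0.29 and 2.54 RPKM, lowest in conceptus 3. GRP alone was at 5.78 RPKM in conceptus 1, and without it the sums were 2.21, 2.24, 0.29 and 0.86 RPKM. The 8 measured leukocyte markers summed to between 1.39 and 2.55 RPKM, also lowest in conceptus 3. CD68 held most of this sum, at 1.90, 1.83, 0.99 and 1.47 RPKM, and PTPRC, which defines leukocytes, was at most 0.04 RPKM. The 10 extraembryonic endoderm markers summed to 769, 467, 603 and 515 RPKM, and this sum was highest in conceptus 1. Its single markers differed: APOA1 and APOA2 were highest in conceptus 1, at 442 and 67.0 RPKM. LRP2 and RBP4 were highest in conceptus 3, at 190 and 110 RPKM, and the other markers averaged under 5 RPKM. The 8 measured stroma and smooth muscle markers summed to 17.2, 12.3, 16.6 and 12.9 RPKM. Among them the matrix genes COL3A1 (0.60, 0.60, 2.81 and 0.44 RPKM) and DCN (0.87, 0.90, 1.92 and 0.50) were highest in conceptus 3. So were LUM (0, 0.07, 1.08 and 0.24) and COL1A2 (0.11, 0.04, 0.79 and 0.04). VIM, the only one averaging 5 RPKM or more, was lowest there, at 13.9, 9.79, 8.83 and 10.7 RPKM. MYH11 and DES were highest in conceptus 1, and COL1A1 was at 0.28 and 0.29 RPKM in conceptuses 1 and 3. The 6 measured blood and endothelium markers summed to 5.37, 2.45, 2.55 and 7.14 RPKM. GATA1 had the highest mean of them, at 3.58, 1.16, 1.22 and 4.71 RPKM. Markers under 5 RPKM are named here after their values were seen. The part of these cell types in the prostaglandin values was not tested. Column sums ran from 454387 to 522308 RPKM, and relative depths estimated from features seen in only 2 libraries were 1, 0.750, 1.06 and 0.665 for conceptuses 1 to 4.

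**Figure D1:**
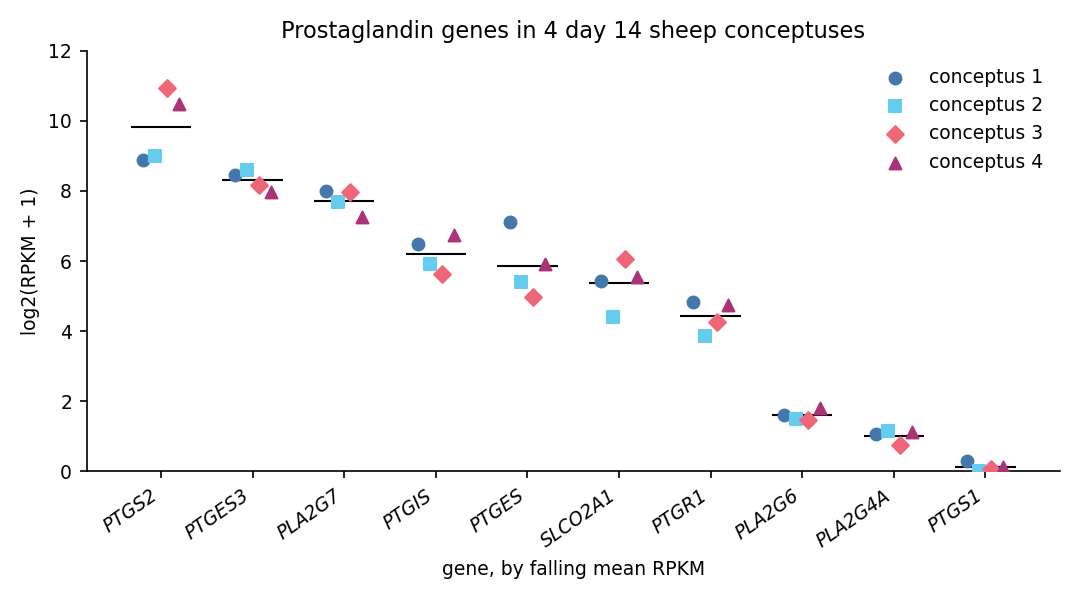
Level of the 10 prostaglandin genes in each conceptus, as log2(RPKM + 1) on the vertical axis, with genes in falling order of mean RPKM; each symbol is 1 conceptus and each bar the mean of the 4 log2 values. PTGS2 stands highest in every conceptus, at 473 to 1968 RPKM, while PLA2G6, PLA2G4A and PTGS1 lie at the bottom.

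PLA2G7 was by far the most abundant of the 3 phospholipases. It encodes a secreted enzyme that cleaves platelet-activating factor and oxidised phospholipids, and it is not a classical supplier of arachidonic acid. It was at 257, 204, 248 and 152 RPKM in conceptuses 1 to 4, a mean of 215 ± 48.4 RPKM (SD, n = 4), with the lowest value in conceptus 4. PLA2G4A, the calcium-dependent cytosolic enzyme that prefers arachidonic acid, was at 1.10, 1.23, 0.68 and 1.18 RPKM, lowest in conceptus 3. PLA2G6, the calcium-independent cytosolic enzyme, was at 2.08, 1.80, 1.79 and 2.53 RPKM. PLA2G6 exceeded PLA2G4A in all 4 conceptuses and the ranges did not overlap, with a difference of 0.58 ± 0.183 on the log2(RPKM + 1) scale. PLA2G7 stood 129 to 365 times above PLA2G4A within a library.

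The wider set of phospholipases and arachidonate-releasing genes was uneven. Of 28 measured members of that list, 17 averaged 1 RPKM or more and 11 averaged 5 or more, with a list median of 1.94 RPKM. Over all features with a symbol, 52.9% averaged 1 RPKM or more and 35.2% averaged 5 or more, with a median of 1.43 RPKM, so this list lay near the whole. After PLA2G7 came PAFAH1B1 at 71.5 RPKM, a subunit that pairs with the intracellular platelet-activating factor hydrolases PAFAH1B3 (23.7) and PAFAH1B2 (17.5 RPKM). ANXA1, annexin A1, known as an inhibitor of cytosolic phospholipase A2, was at 29.3, 74.0, 105.6 and 58.9 RPKM, lowest in conceptus 1 and highest in conceptus 3. PLAA, described in the table as a phospholipase A2 activator, was at 25.0 RPKM. The lipases MGLL, PNPLA2 and PNPLA8, which act on monoacylglycerol, triglyceride and phospholipid, were at 12.8, 9.0 and 6.92 RPKM. In all, 11 members of the list were under 1 RPKM and 4 of them were listed at 0 in every library.

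Several genes that make arachidonic acid or load it into membranes were abundant. Of 11 measured genes of supply and remodelling, 8 averaged 5 RPKM or more, against 35.2% of all features with a symbol. In this list 6 averaged 100 RPKM or more, and the list median was 195 RPKM. MBOAT7, ELOVL2 and ACSL1, named after their values were seen, were at 4.75, 1.24 and 0.54 RPKM. The acyl-CoA synthetases ACSL6 and ACSL3 were at 328 and 195 RPKM and the acyltransferase LPCAT1 at 5.03 RPKM. LPCAT3, the acyltransferase that puts polyunsaturated chains into phospholipid, was at 766, 443, 1175 and 1401 RPKM in conceptuses 1 to 4, high in conceptuses 3 and 4 and lowest in conceptus 2. The acyl-CoA synthetase ACSL4, which prefers arachidonic acid, was at 22.0, 36.7, 17.7 and 20.9 RPKM, and its highest value was in conceptus 2. The desaturase FADS1 and the elongase ELOVL5 were highest in conceptus 3, at 2485 and 2090 RPKM. FADS2, the supply gene with the highest mean, was at 2341, 1410, 2124 and 2653 RPKM, highest in conceptus 4 and higher in conceptus 1 than in conceptus 3.

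Of both cyclooxygenase genes, PTGS2 held nearly all of the RPKM. PTGS2 is the inducible enzyme of the pair, and it was at 473, 507, 1968 and 1424 RPKM in conceptuses 1 to 4. Conceptuses 1 and 2 were low and close to each other, and conceptuses 3 and 4 were high, so that conceptus 3 held 4.16 times the RPKM of conceptus 1. Among features with a symbol, PTGS2 ranked 83 in conceptus 1, 63 in conceptus 2, 10 in conceptus 3 and 20 in conceptus 4. Its share of the summed RPKM of the 10 genes was 34.3%, 41.0%, 73.7% and 68.9%. The relative depths of conceptuses 3 and 4, the libraries with more PTGS2, were 1.06 and 0.665, and the part of depth was not tested.

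PTGS1, the constitutive cyclooxygenase, was at 0.22, 0, 0.06 and 0.09 RPKM. Multiplied by relative depth, its values became 0.22, 0, 0.0638 and 0.0599 in conceptuses 1 to 4. Those of conceptuses 3 and 4 were nearly equal, as the same small number of reads in each would give, although the relative depths are rough. The size of the gap between both cyclooxygenases therefore cannot be given precisely, and a value of 0 here means only that the gene is listed at 0. TP-1 followed the same order of libraries at the high end, at 14004, 13397, 29709 and 24277 RPKM, and the ratio of PTGS2 to TP-1 was 0.0338, 0.0379, 0.0663 and 0.0586.

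**Figure D2:**
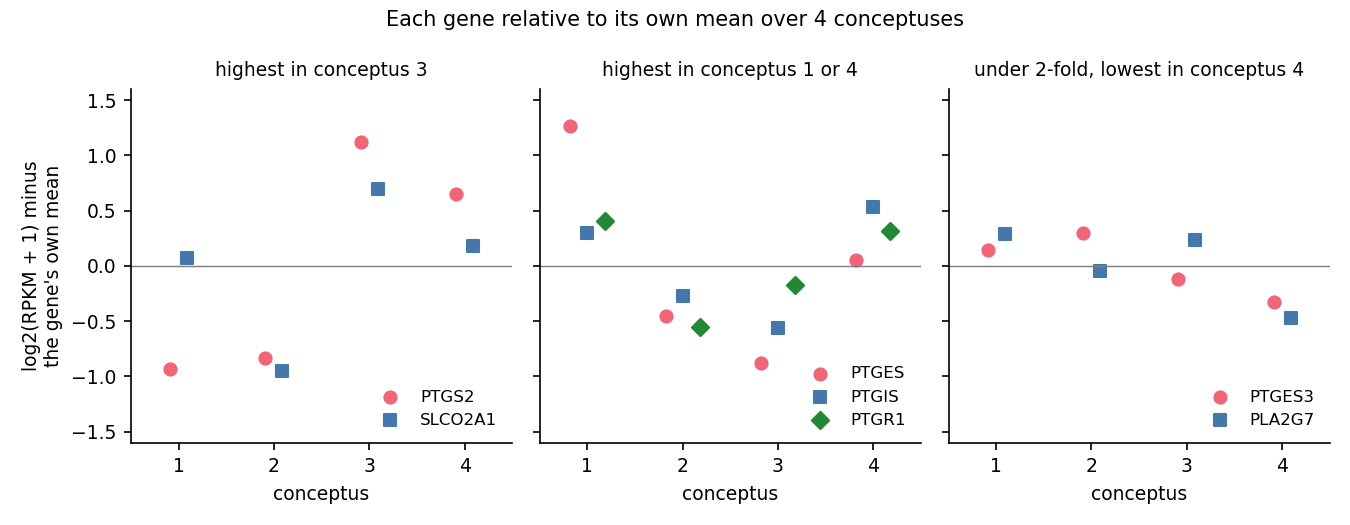
Each gene averaging 5 RPKM or more, relative to its own mean, as log2(RPKM + 1) minus that mean, with the 4 conceptuses on the horizontal axis and 1 point for each gene and conceptus. PTGS2 and SLCO2A1 are highest in conceptus 3, PTGES and PTGIS are lowest there, and PTGES3 and PLA2G7 stay within 2-fold.

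Terminal synthases for prostaglandin E and for prostacyclin were both present, and they did not follow PTGS2. PTGES, the microsomal prostaglandin E synthase usually coupled to PTGS2, was at 138, 41.2, 30.4 and 58.9 RPKM in conceptuses 1 to 4, a mean of 67.1 ± 48.6 RPKM. Conceptus 1, with the least PTGS2, had the most PTGES, and conceptus 3, with the most PTGS2, had the least. Conceptus 4, however, had more of both than conceptus 2. Of all 6374 features that averaged 5 RPKM or more, 33.9% were highest in conceptus 1 and 31.2% lowest in conceptus 3. PTGS2 was 3.43, 12.3, 64.6 and 24.2 times as high as PTGES in the 4 conceptuses. This difference was 3.98 ± 1.76 on the log2(RPKM + 1) scale, with PTGS2 above PTGES in 4 of 4.

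PTGIS makes prostacyclin from the same endoperoxide. It was at 88.9, 59.7, 48.8 and 105.2 RPKM, a mean of 75.6 ± 26.0 RPKM, highest in conceptus 4 and lowest in conceptus 3. PTGIS exceeded PTGES in 3 of 4 conceptuses, and the difference of 0.35 ± 0.661 on the log2 scale was smaller than its spread. PTGES made up 60.8% of the sum of both in conceptus 1 and 35.9% to 40.8% in the other 3.

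PTGES3 is a cytosolic protein with reported prostaglandin E synthase activity, better known as p23, a co-chaperone of HSP90. It was at 347, 387, 289 and 251 RPKM, a mean of 319 ± 60.5 RPKM, and conceptus 2 held 1.54 times the RPKM of conceptus 4. Its ratio to HSP90AB1, the abundant HSP90 gene, lay between 0.148 and 0.177 in the 4 libraries. Of 7 measured terminal synthase genes, these 3 members were the ones at 1 RPKM or more, against 52.9% of all features with a symbol. The other 4 were between 0 and 0.192 RPKM. Among those 4, TBXAS1, the thromboxane synthase, and HPGDS, a prostaglandin D synthase, were at 0.0150 and 0 RPKM; they are named after their values were seen. The feature PTGES3L, named like PTGES3 but outside the list and also picked after its values were seen, was at 44.1, 23.0, 18.9 and 32.3 RPKM. Several other listed synthases, AKR1B1 and PTGES2 among them, matched no feature by symbol, so their levels are unknown here.

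SLCO2A1 encodes the main prostaglandin transporter of the plasma membrane, best known for uptake. It was at 42.3, 20.3, 65.5 and 45.7 RPKM in conceptuses 1 to 4, a mean of 43.5 ± 18.5 RPKM. It was highest in conceptus 3, like PTGS2, but it was lowest in conceptus 2 and its values in conceptuses 1 and 4 were close. PTGS2 was 11.2 to 31.1 times as high as SLCO2A1, with the lowest ratio in conceptus 1. Among 8 measured transport genes SLCO2A1 was the only one at 5 RPKM or more, and 4 were under 1 RPKM. Of all features with a symbol, 35.2% averaged 5 RPKM or more and 47.1% were under 1 RPKM. Thus 4 of 8 under 1 RPKM is near the share of all features. The transporter ABCC4 was listed too but matched no feature by symbol, so its level is unknown here.

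PTGR1, a reductase that acts on the oxidised, 15-keto form of prostaglandins and on leukotriene B, was at 27.6, 13.7, 18.0 and 25.8 RPKM, a mean of 21.3 ± 6.54 RPKM. Conceptuses 1 and 4 were higher than conceptuses 2 and 3, as they were for PTGIS. ZADH2, another prostaglandin reductase, was at 16.1, 19.5, 15.4 and 19.3 RPKM. HPGD, the dehydrogenase that makes the 15-keto form on which these reductases act, was at 0.0325 ± 0.0250 RPKM and listed at 0 in conceptus 4; it is named after its values were seen.

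Receptors for prostanoids were mostly near 0 in the conceptus. Of 10 measured genes in the receptor list, 8 were under 1 RPKM, against 47.1% of all features with a symbol, and 2, the prostaglandin F receptor PTGFR and the prostaglandin D receptor PTGDR, were listed at 0 in all 4 libraries. The only one that averaged 5 RPKM or more was PPARD, a nuclear receptor for which prostacyclin is a proposed ligand, at 23.3 ± 5.02 RPKM. PTGFRN, described as an inhibitor of the prostaglandin F receptor, was at 3.73 RPKM. The surface receptor with the highest mean was PTGER3, a prostaglandin E receptor, at 0.07, 1.25, 1.10 and 0.75 RPKM. A feature described as the EP4 type of prostaglandin E receptor was at 0.140 ± 0.0864 RPKM. These receptors, PPARD apart, are named after their values were seen. PPARG and PTGER1 were listed too but matched no feature by symbol. In the lipoxygenase branch, which uses the same substrate, 9 of 11 measured genes were under 1 RPKM and LTA4H, the leukotriene A hydrolase, was the highest at 6.33 RPKM.

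**Figure D3:**
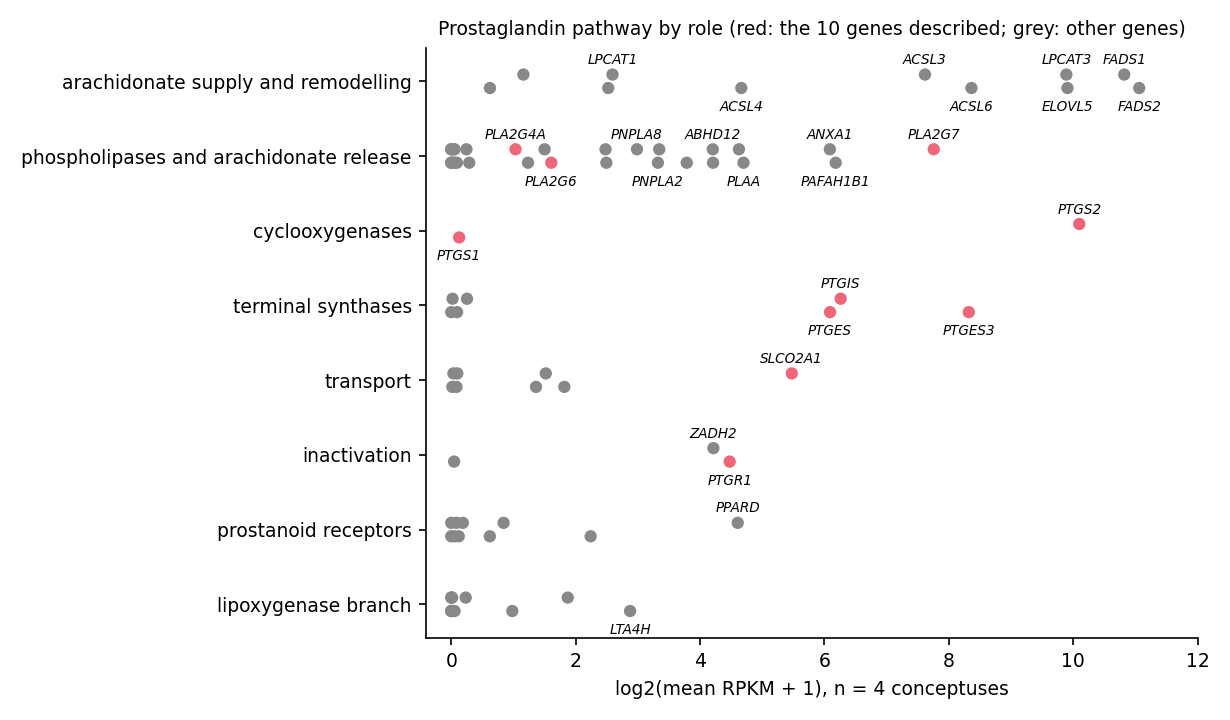
Mean level of each measured gene of the pathway by role, as log2(mean RPKM + 1) over 4 conceptuses; each point is a gene, with those above 5 RPKM named where space allows. Supply genes reach 2132 RPKM (FADS2), PTGS2 stands alone at the cyclooxygenase step, and 8 of 10 receptor genes lie under 1 RPKM.

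By mean RPKM the 10 genes ran, from the top, PTGS2, PTGES3, PLA2G7, PTGIS, PTGES, SLCO2A1, PTGR1, PLA2G6, PLA2G4A and PTGS1. The order was set by these same values, so the direction of a neighbour pair on average is fixed by it. Of the 9 neighbours in this order, 7 kept their direction in 4 of 4 conceptuses and 5 had ranges that did not overlap. PTGIS and PTGES did not differ beyond their spread, nor did PTGES and SLCO2A1, at 0.49 ± 1.18 on the log2(RPKM + 1) scale. PTGES3 exceeded PLA2G7 in all 4 by 0.57 ± 0.308, and SLCO2A1 exceeded PTGR1 in all 4 by 0.94 ± 0.590, although their ranges overlapped. The step from PTGS2 to PTGES3 was 1.52 ± 1.28, and it was 0.44 and 0.39 in conceptuses 1 and 2 but 2.76 and 2.50 in conceptuses 3 and 4. The widest step on this scale was 2.82 ± 0.343, from PTGR1 to PLA2G6. An exact permutation test that flips signs, two-sided, over 12 pairs, these 9 and 3 pairs of related roles, gave p = 0.13 for the 10 pairs with the same direction in all conceptuses and 0.150 after adjustment over the 12. For PTGIS over PTGES and PTGES over SLCO2A1 the same exact test gave 0.375 and 0.50, or 0.409 and 0.50 adjusted. With 4 conceptuses 0.13 is the smallest p this test allows, so no pair can pass 0.05.

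Of the 7 genes that averaged 5 RPKM or more, 4 differed more than 2-fold between the highest and the lowest conceptus, counted on RPKM + 1, against 18.0% of all 6374 features of that level. They were PTGES at 4.42-fold, PTGS2 at 4.15-fold, SLCO2A1 at 3.13-fold and PTGIS at 2.13-fold. PTGES and PTGS2 also passed 4-fold, which 1.54% of all features did, but PTGES was at 3.90-fold when libraries were scaled by the median of ratios. PTGR1 at 1.95-fold, PLA2G7 at 1.69-fold and PTGES3 at 1.54-fold did not pass 2-fold, and the median over all features was 1.54-fold. PLA2G6, PLA2G4A and PTGS1 were too low for this count. Each call but 1 rested on particular libraries. PTGES fell to 1.90-fold without conceptus 1, SLCO2A1 to 1.53-fold without conceptus 2, and PTGIS to 1.75-fold and 1.81-fold without conceptus 3 or 4. PTGS2 stayed between 3.01-fold and 4.15-fold when any 1 conceptus was left out. Among the other listed genes, 9 of the 25 that averaged 5 RPKM or more differed more than 2-fold. ELOVL5 at 9.95-fold, ANXA1 at 3.52-fold and LPCAT3 at 3.16-fold were the widest. The 25 include 4 HSP90 partners of PTGES3, none of which passed 2-fold.

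**Figure D4:**
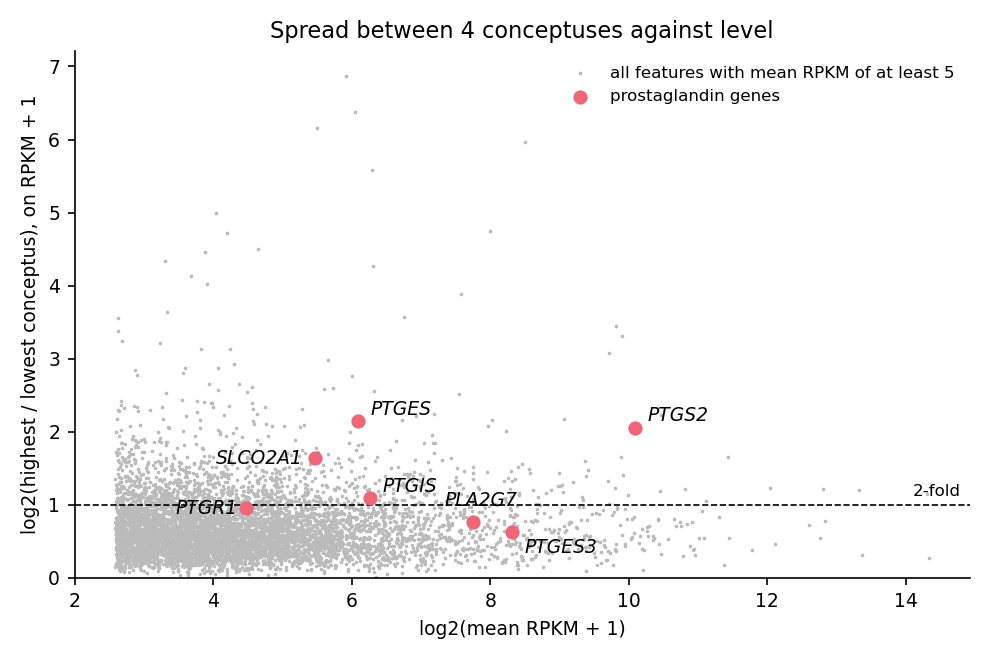
Spread between conceptuses against level for 6374 features averaging 5 RPKM or more: log2(mean RPKM + 1) across, log2 of highest over lowest conceptus on RPKM + 1 upward, dashed line at 2-fold. PTGES, PTGS2, SLCO2A1 and PTGIS lie above the line, and PTGR1, PLA2G7 and PTGES3 below it.

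The profiles of the 7 genes over the conceptuses were compared by the root mean square distance between log2(RPKM + 1) values, each gene centred on its own mean. The closest pairs were PTGES3 with PLA2G7 and PTGIS with PTGR1, both at 0.27. PTGS2 was nearest to SLCO2A1, at 0.60, and farthest from PTGES, at 1.53, the largest of the 21 distances. The profiles were not scaled for spread, so steady genes lie close together and widely varying genes can lie far apart. PTGES3 and PLA2G7, at 1.54-fold and 1.69-fold the steadiest of the 7, were highest in different conceptuses, 2 and 1. These distances rest on 4 points each and are a description.

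Among 5357 other genes with a symbol that averaged 5 RPKM or more, the profile closest to that of PTGS2 was that of SULT1E1, the oestrogen sulfotransferase, at 1.45, 1.56, 11.6 and 6.65 RPKM and a distance of 0.14. SULT1E1 and SESN1 passed the level of 5 RPKM through conceptuses 3 and 4, where PTGS2 is high, and SULT1E1 left the 5 nearest with a pseudocount of 0.1. THEM4, a thioesterase, followed at 0.17 and IL17F, an interleukin gene, at 0.21, with 50.2, 68.0, 236 and 129 RPKM for IL17F. SESN1, a sestrin, and FAM115C were both at 0.26, and the median distance of all 5357 was 0.96. Of 5 genes picked by hand and not by distance, TP-1 was at rank 14 with a distance of 0.41, and ELOVL5 at rank 32 with 0.47. LPCAT3 and FADS1 were at ranks 48 and 49, both with 0.51, and SLC2A3, outside the lists, at rank 199 with 0.67. The profiles closest to PTGES were those of COA4 (0.16), ZNF593 (0.17), C16orf74 (0.20), DNLZ (0.25) and TMEM150A (0.26), against a median of 0.77. For PTGS2 and for PTGES the 5 nearest were picked by their small distances, so their place under the median was fixed in advance. C16orf74, at 11.8, 3.82, 3.18 and 6.42 RPKM, passed the level of 5 RPKM through conceptus 1, where PTGES is high. COA4, an assembly factor of cytochrome oxidase, was at 92.3, 31.6, 27.9 and 45.5 RPKM, so it too was highest in conceptus 1 and lowest in conceptus 3.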

How the data were processed

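RNA of 4 day 14 conceptuses was sequenced on an Ion Proton from strand-specific, ribosome-depleted libraries pooled 3 to a chip, per the labels' protocols. Torrent Suite 4.0.2 called the bases, per the same protocols, and the submitters' processing notes name the build Oar_v3.1. Which aligner, counter and annotation release were used, whether counting used strand and how reads shared between gene copies were handled was not given in the sources used here. RPKM values were deposited by the authors for 25197 features; the unit is named only for their second table, which holds the 5527 features at 5 RPKM or more in all libraries, with identical values. No counts were used, so absolute depth is unknown; relative depth was taken from the most frequent ratio of features above 0 in only 2 libraries, near which 35.8% to 51.6% of the 91 to 193 features of a pair lay, so it is rough.

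All 10 members matched a feature by symbol, and all 10 symbols occur in the RefSeq gene table, used for names only. The members and gene lists were chosen with earlier results of these data known. Genes that could be named are every member, list genes averaging 5 RPKM or more, and the 5 nearest profiles of PTGS2 and of PTGES. Not all are named, and others are said to be picked by hand or after their values were seen. Spread was counted as highest over lowest conceptus above 2 on RPKM + 1. Pairs of genes were compared on log2(RPKM + 1), a pseudocount of 1, by an exact sign-flip permutation test with Benjamini-Hochberg adjustment. Replicates are conceptuses of different ewes. Alternatives were other pseudocounts, filters, folds, thresholds and library scalings, and leaving out each conceptus. The fold count and the profile distance were run on simulated data with less noise than these values, which checks the code and not the results. Python 3.11.15, numpy 2.4.6, pandas 2.3.3 and matplotlib 3.10.9 were used.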

Additional observations from a re-analysis of the deposited data

Results flagged for a closer look

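In 64 sets of 4 values, covering the 10 genes, list genes averaging 5 RPKM or more, and ratios between members, 1 set had a conceptus far from the others; chance gives about 1 in 20, or 3.2 sets. The ratio of PTGES to PTGIS was 1.55 in conceptus 1, against 0.690, 0.624 and 0.560 in conceptuses 2 to 4.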

How the results depend on the processing

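The 4 genes over 2-fold became 5 with a pseudocount of 0.1 or none (PTGR1 added, at 2.01-fold and 2.02-fold), 3 with either library scaling (PTGIS at 1.93-fold or 1.95-fold), 7 at a fold of 1.5 and 2 at a fold of 4, where PTGES at 3.90-fold with median-of-ratios scaling would not pass. The share of all features over the line was 54.0% at 1.5-fold, 1.54% at 4-fold and 7.64% with no filter on the mean. Without 1 conceptus, 3 genes passed 2-fold each time, against 10.3% to 13.3% of features. The mean of PTGS2 ran from 801 to 1300 RPKM without 1 conceptus. All 12 gene pairs kept the sign of their mean difference in the 72 alternatives run, while PTGES over SLCO2A1 fell to 0.09 on the log2 scale without conceptus 1. PLA2G4A over PTGS1 was 0.90, or 2.67 with a pseudocount of 0.1 and 0.25 with 5, so its size follows the pseudocount. Of the 5 nearest genes of PTGS2, 4 were kept with a pseudocount of 0.1, SULT1E1 being lost, and 3 of those of PTGES. Of 85 measured pathway genes, 5 HSP90 partners of PTGES3 included, 46 averaged 1 RPKM or more, 50 averaged 0.5 or more and 32 averaged 5 or more. Over all features with a symbol 52.9% averaged 1 or more and 35.2% averaged 5 or more. No paired analysis was possible because the design holds 1 group, so no groups could be paired by replicate; pairs of genes were compared within each conceptus. Low values such as those of PTGS1 are limited by a depth that is unknown in reads.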
